A study of Mus musculus with 24 samples.

Results

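The cGAS-STING axis and the enzymes that limit its ligands were followed through 10 genes, taken by symbol from the 25229 symbols of the count table. Cgas, Sting1, Tbk1 and Ikbke encode the sensor, its adaptor and the kinases below it, and Trex1, Samhd1, Rnaseh2a, Rnaseh2b, Rnaseh2c and Enpp1 encode enzymes that remove nucleic acids, nucleotides or the second messenger. Of the 10 genes, 9 had reads and passed the filter on low counts, and 1 (Trex1) was listed at 0 in each of the 24 libraries. The RNA came from ID8 P53 KO cells, a mouse ovarian cancer line of C57BL/6 origin that carries a P53 knockout in each of the 4 groups, controls included, and that was grown in culture without host cells. The 4 groups, with 6 libraries each, were treated for 6 days with DMSO (the vehicle), with AU-15330 at 2.5 µM, with cisplatin at 750 nM, or with both (the combination). AU-15330 is a proteolysis-targeting chimera that sends SMARCA4 and related SWI/SNF proteins to the proteasome, and cisplatin crosslinks DNA and was used to induce senescence. The study's methods give a slightly higher cisplatin concentration than the labels, which were followed here. The labels do not say whether the 6 replicates of a treatment were separate cultures, so p-values measure the spread between these libraries, which may be technical.

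cGAS binds double-stranded DNA in the cytosol and makes the cyclic dinucleotide cGAMP, which binds STING on the endoplasmic reticulum. STING then recruits the kinase TBK1, with its relative IKKε (encoded by Ikbke), which phosphorylates IRF3 and so switches on type I interferon. The exonuclease TREX1, the dNTP hydrolase SAMHD1 and the ribonuclease RNase H2 keep self nucleic acids low, ENPP1 degrades cGAMP outside the cell, and loss of TREX1, SAMHD1 or RNase H2 causes the interferonopathy Aicardi-Goutières syndrome in people.

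Levels are given in CPM, as computed by edgeR from read counts with trimmed-mean (TMM) scaled library sizes, and log2 fold changes come from edgeR's quasi-likelihood test with Benjamini-Hochberg adjustment over 12941 genes. Library totals ran from 17592588 to 25260009 counts, at which 3 counts correspond to 0.12 to 0.186 CPM. The line expressed its mesothelial and ovarian surface markers: 6 of 6 (Wt1, Krt7, Krt8, Krt18, Msln and Upk3b) passed the filter, although their summed level ran from 2094 to 2790 CPM with DMSO, from 1013 to 1139 CPM with AU-15330, from 2972 to 3155 CPM with cisplatin and from 1214 to 1379 CPM with the combination. The leukocyte gene Ptprc had at most 5 counts in any library, and 1 of 6 leukocyte markers, Cd68, passed the filter and was higher than with DMSO by 1.56 with AU-15330 and 1.52 with the combination (log2). The 6 markers summed to 6.46 to 18.97 CPM with DMSO, 16.8 to 53.1 CPM with AU-15330, 6.85 to 13.2 CPM with cisplatin and 23.96 to 42.3 CPM with the combination. Of 3 endothelial markers 1 passed, Pecam1, which changed against DMSO by 1.49 with cisplatin, -2.95 with AU-15330 and -2.26 with the combination, the same directions as Sting1, and the 3 together summed to at most 12.5 CPM in any library. Their part in the results was not tested. Smarca4 RNA had medians of 250.1 CPM with DMSO, 383 CPM with AU-15330, 322 CPM with cisplatin and 387 CPM with the combination, and Smarca2 RNA, of the related ATPase, had 445 CPM, 288.9 CPM, 517 CPM and 255.9 CPM in the same order, and since AU-15330 acts on the proteins these levels do not check the labels. In RNA from whole cultures, fewer cells of one state and less RNA per cell cannot be told apart. After group means were removed, the leading component of the libraries (22.2% of the remaining variance) placed replicate 1 lowest in each treatment (scores of -0.44 to -0.283) and replicates 4 to 6 between -0.029 and 0.429. The labels name no batch for these numbers, and some values are given below within replicates 1 to 3 and within replicates 4 to 6 as well.

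Cgas was higher in each treatment than with DMSO, and Enpp1 was lower in each, and the sequence before the annotated start of these 2 genes is shown for that reason. Each line gives the 250 bases before the RefSeq start (GRCm38.p6), read 5′ to 3′ on the gene's own strand. The Cgas stretch is chr9:78443238-78443487 (minus strand) and the Enpp1 stretch is chr10:24712160-24712409 (minus strand).
Cgas: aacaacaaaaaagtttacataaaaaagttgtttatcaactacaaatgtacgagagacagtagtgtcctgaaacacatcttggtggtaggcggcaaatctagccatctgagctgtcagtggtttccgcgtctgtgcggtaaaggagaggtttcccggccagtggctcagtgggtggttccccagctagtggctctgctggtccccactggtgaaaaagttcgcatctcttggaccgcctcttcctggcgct
Enpp1: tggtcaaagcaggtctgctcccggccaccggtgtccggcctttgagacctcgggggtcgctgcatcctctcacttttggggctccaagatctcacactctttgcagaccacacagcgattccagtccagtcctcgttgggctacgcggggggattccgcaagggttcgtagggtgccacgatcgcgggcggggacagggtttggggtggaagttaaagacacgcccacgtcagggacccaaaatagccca
Capitals would mark a match, on either strand, to the core of the interferon-stimulated response element (GAAANNGAA), to AP-1 (TGANTCA) or to E2F (TTTNGCGC), and neither stretch holds one. Windows of 250 bases before to 50 bases after a start were held for 8 of the 10 genes, in 9 windows. A single match was found in them, AP-1 in Ikbke at 6 bases before the start. Of 32851 such windows over all genes, 8.56% held the response element core, 7.81% the AP-1 letters and 1.38% the E2F letters, so the absence of these letters from a few windows is what most windows show.

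Against DMSO, 5 of the 9 genes passed the test with cisplatin (4 higher, 1 lower), 7 with AU-15330 (3 higher, 4 lower) and 8 with the combination (4 higher, 4 lower). These shares stood against 51.7%, 73.4% and 73.3% of all tested genes, so the number of members called was near the background, and the direction and size of the change of each gene are what is described below. The median log2 fold change of the 9 genes was 0.12, 0.0 and -0.22 in the 3 comparisons, and those over all tested genes were -0.004, -0.003 and -0.001.

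**Figure D1:**
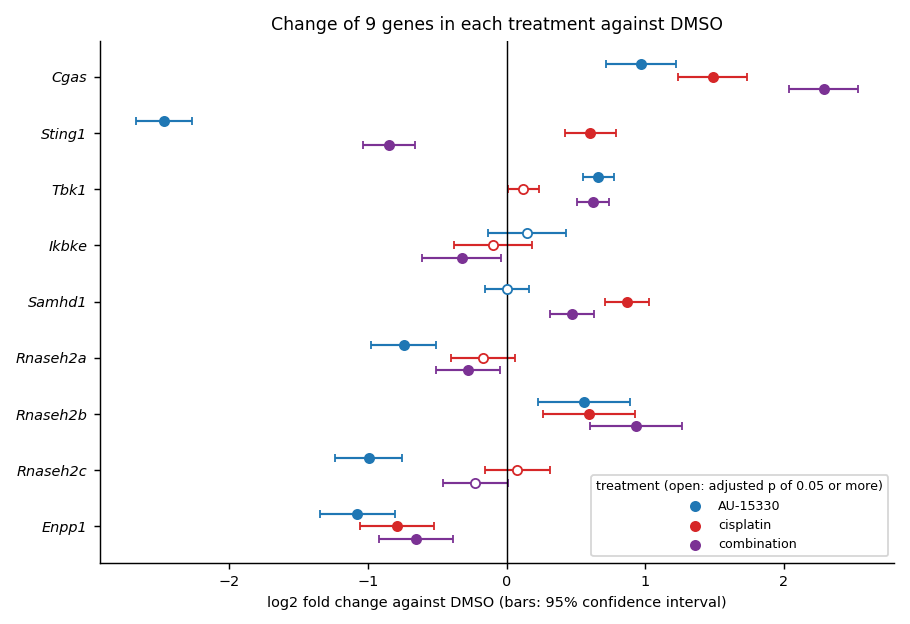
Log2 fold change of the 9 genes against DMSO for AU-15330, cisplatin and the combination, with 95% confidence intervals, filled where the adjusted p was under 0.05. Cgas is to the right of 0 and Enpp1 to the left in the 3 treatments, while Sting1 is at 0.60 with cisplatin, -2.47 with AU-15330 and -0.85 with the combination.

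Cgas (GRCm38 chromosome 9, 78430526 to 78443237, minus strand) encodes the DNA sensor and was the gene with the fewest reads among the 9 with DMSO. Its level had a lowest, median and highest value of 3.65, 4.71 and 5.12 CPM with DMSO, 6.99, 8.68 and 11.2 CPM with AU-15330, 11.3, 11.9 and 17.7 CPM with cisplatin, and 20.8, 22.6 and 24.8 CPM with the combination. The 4 ranges did not overlap, and each step in this order passed the test: AU-15330 over DMSO by 0.97 (log2, with a standard error of 0.123 and an adjusted p of 1.03e-07), cisplatin over AU-15330 by 0.52 (adjusted p = 0.000252) and the combination over cisplatin by 0.80 (adjusted p = 6.05e-07). Cgas in the combination was 4.88-fold of DMSO, and it was higher in 6 of 6 replicate numbers. Replicate 1 held both the lowest DMSO value (3.65 CPM) and the highest cisplatin value (17.7 CPM). Without replicate 1 the log2 fold change against DMSO was 1.30 with cisplatin instead of 1.48, 0.82 with AU-15330 and 2.15 with the combination. For AU-15330 against DMSO, replicates 1 to 3 gave 1.16 and replicates 4 to 6 gave 0.74. The effect of AU-15330 on Cgas with cisplatin minus that without was -0.16 (95% interval -0.50 to 0.18, adjusted p = 0.470), so a departure from additive log2 effects was not detected. This difference was -0.44 (adjusted p = 0.310) in replicates 1 to 3 and 0.09 (adjusted p = 0.696) in replicates 4 to 6.

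Sting1 (listed as Tmem173 in GENCODE, chromosome 18, 35733679 to 35740554, minus strand) encodes the adaptor and was ordered differently from the sensor. Its lowest, median and highest levels were 4.93, 5.82 and 7.38 CPM with AU-15330, 16.2, 17.1 and 22.9 CPM with the combination, 30.1, 32.5 and 35.2 CPM with DMSO, and 44.2, 50.1 and 56.9 CPM with cisplatin. Again no ranges overlapped and each neighbouring pair passed the test. Where no cisplatin was given, AU-15330 against DMSO was at -2.47 (log2, with a standard error of 0.0984 and an adjusted p of 1.11e-17), and where it was given, the combination against cisplatin was at -1.45 (adjusted p = 1.68e-13), and these 2 effects differed by 1.02 (adjusted p = 1.61e-06). Read the other way, cisplatin raised Sting1 3.08-fold in the presence of AU-15330 and 1.52-fold in its absence. Leaving out each replicate number in turn gave -2.57 to -2.44 for AU-15330 against DMSO.

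Within a library, Cgas reads per 100 Sting1 reads were 11.6 to 16.4 with DMSO, 22.4 to 34.8 with cisplatin, 108.5 to 138 with the combination and 119 to 208 with AU-15330. Such a ratio is free of library scaling, but not of transcript length, so the change between groups and not the ratio itself can be read. On a per-length scale, in CPM per kb of exon, median Cgas was 1.14 and median Sting1 11.9 with DMSO, against 2.10 and 2.12 with AU-15330 and 5.47 and 6.22 with the combination.

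**Figure D2:**
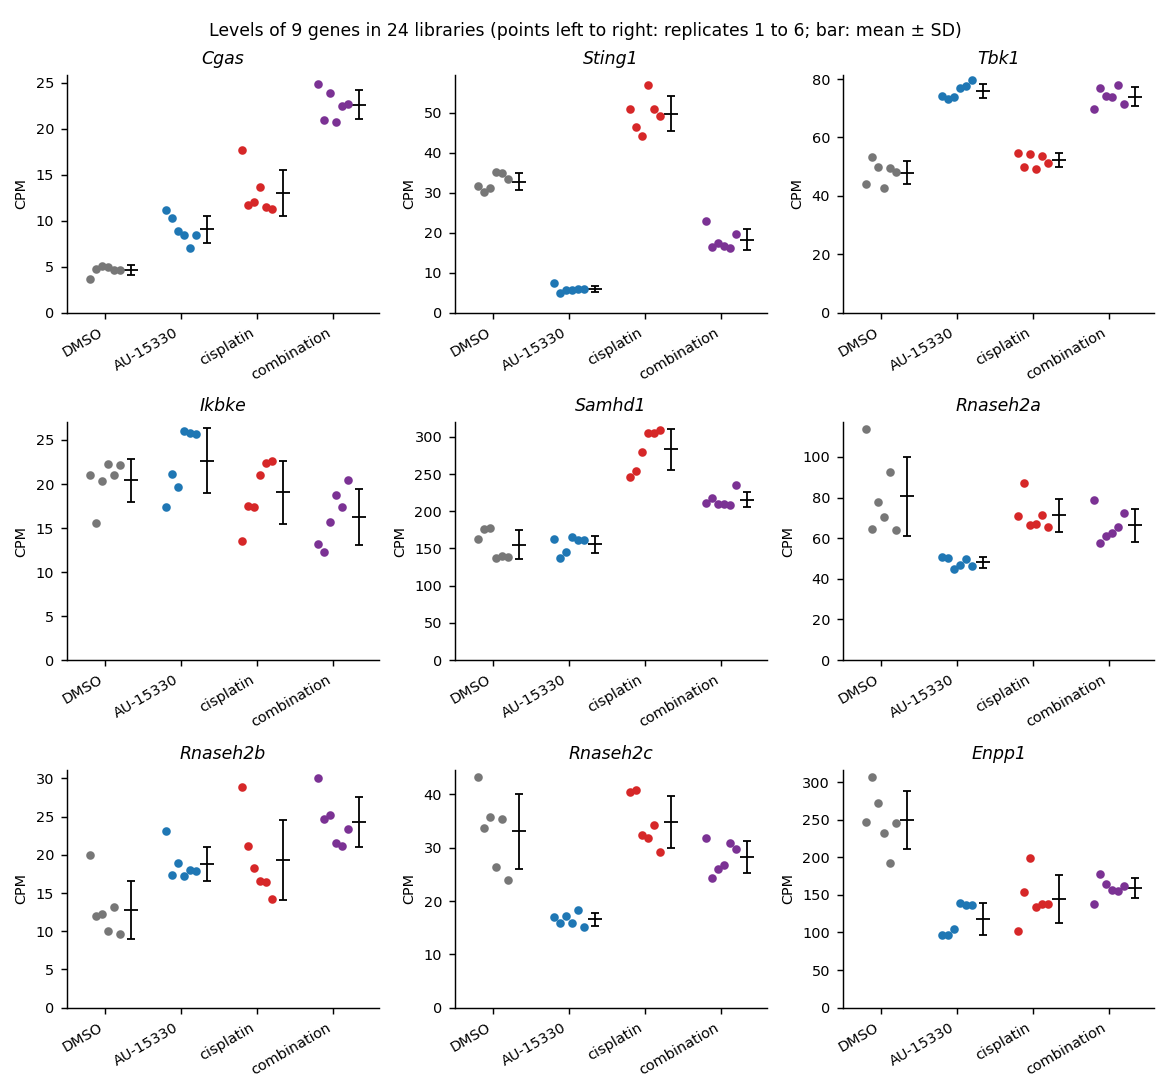
Level in CPM of 9 genes in each of 24 libraries, by treatment, with points from left to right for replicates 1 to 6 and the mean ± SD (n = 6) beside them, each axis starting at 0. The 4 treatments are separate for Cgas and Sting1, while Ikbke overlaps in each pair of groups.

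Tbk1 (chromosome 10, 121546455 to 121586787, minus strand), the main kinase recruited by STING, followed AU-15330. It measured 42.8, 48.8 and 53.3 CPM (lowest, median and highest) with DMSO and 49.2, 52.5 and 54.6 CPM with cisplatin, and 73.3, 75.5 and 79.7 CPM with AU-15330 and 69.7, 73.9 and 78.0 CPM with the combination. The groups with AU-15330 lay wholly above those without it. The log2 fold change was 0.66 for AU-15330 against DMSO (standard error 0.0557, adjusted p = 5.02e-11) and 0.50 for the combination against cisplatin (standard error 0.0554, adjusted p = 1.01e-08). The combination against DMSO gave 0.62 (adjusted p = 1.56e-10). Cisplatin against DMSO gave 0.12 (adjusted p = 0.0712), and this value did pass the threshold without replicate 2 (0.17, adjusted p = 0.0264), with DESeq2 (0.13, adjusted p = 0.0350) and with total counts for scaling (0.20, adjusted p = 0.00444).

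Ikbke (chromosome 1, 131254343 to 131279606, minus strand) encodes the second kinase and passed the test in 2 comparisons in the fit without a term for replicates. Medians were 21.04 CPM with DMSO, 23.5 CPM with AU-15330, 19.3 CPM with cisplatin and 16.5 CPM with the combination, and the ranges of each pair of groups overlapped. Against DMSO the single drugs gave 0.15 (AU-15330, adjusted p = 0.332) and -0.10 (cisplatin, adjusted p = 0.574), and AU-15330 gave 0.03 (adjusted p = 0.862) in replicates 1 to 3 and 0.23 (adjusted p = 0.0134) in replicates 4 to 6. The combination was lower than AU-15330 by -0.47 (adjusted p = 0.00737) and lower than DMSO by -0.32 (adjusted p = 0.0372), and the second call was lost without replicate 3, 4 or 5 (adjusted p = 0.0849, 0.0537 and 0.0596) and with total counts (adjusted p = 0.227). Its libraries divided by replicate number: with AU-15330, replicates 1 to 3 were at 17.4 to 21.2 CPM and replicates 4 to 6 at 25.73 to 25.98 CPM. With a term for these 2 sets, chosen after the levels were seen, the combination against DMSO was -0.34 (adjusted p = 0.00120), and 3 further results passed the threshold: the combination against cisplatin (-0.23, adjusted p = 0.0234), AU-15330 against cisplatin (0.25, adjusted p = 0.0110) and the effect of AU-15330 with cisplatin minus that without (-0.37, adjusted p = 0.0209). Without the term these 3 were -0.23, 0.25 and -0.38 (adjusted p = 0.148, 0.107 and 0.138).

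Among the enzymes that limit the ligand, Trex1 (chromosome 9, 109057933 to 109059734, minus strand) encodes the main DNA exonuclease of mammalian cells, and its row was 0 in each library. In the GENCODE M21 annotation all of its 1147 exonic bases lie within exons of Atrip on the same strand, and Atrip was also listed at 0 throughout. Among coding genes with over 90% of their exonic bases shared in this way, 9 of 32 (28.1%) were listed at 0, against 2709 of 19579 (13.8%) of those with no such overlap. The counting rule for reads in shared exons was not given in the sources used here, so the 0 is a listed value and no level of Trex1 RNA was measured.

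Samhd1 (chromosome 2, 157097533 to 157135265, minus strand), which hydrolyses dNTPs, rose with cisplatin. Its lowest, median and highest levels were 136.6, 151.6 and 177 CPM with DMSO, 136.8, 161.5 and 165 CPM with AU-15330, 245.8, 292 and 309 CPM with cisplatin, and 209, 210.6 and 235 CPM with the combination. Both groups with cisplatin lay above both without it. Cisplatin against DMSO gave 0.87 (log2, with a standard error of 0.0778 and an adjusted p of 9.05e-10), and the combination was lower than cisplatin by -0.39 (standard error 0.0773, adjusted p = 6.94e-05) and higher than DMSO by 0.47 (adjusted p = 5.63e-06). The effect of AU-15330 was 0.00 (95% interval -0.16 to 0.16) without cisplatin, and the difference between its effects with and without cisplatin was -0.40 (adjusted p = 0.00678). That difference depended on the libraries: its call was lost without replicate 4 or 5 (adjusted p = 0.0592 and 0.0557), and it was -0.10 (adjusted p = 0.691) in replicates 1 to 3 and -0.74 (adjusted p = 1.08e-05) in replicates 4 to 6. In the same 2 sets AU-15330 against DMSO gave -0.22 (adjusted p = 0.0595) and 0.22 (adjusted p = 0.00403), and cisplatin against DMSO gave 0.59 and 1.13.

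RNase H2, which cuts RNA paired with DNA and single ribonucleotides within DNA, has a catalytic subunit (Rnaseh2a, chromosome 8, 84956610 to 84969767, minus strand) and 2 accessory subunits (Rnaseh2b, chromosome 14, 62292589 to 62372992, plus strand, and Rnaseh2c, chromosome 19, 5601873 to 5607019, plus strand). The 3 transcripts did not move together between treatments. Rnaseh2a was at 64.1, 74.1 and 114 CPM (lowest, median and highest) with DMSO and 44.7, 48.3 and 50.8 CPM with AU-15330, a difference of -0.74 (log2, with a standard error of 0.113) at an adjusted p of 1.91e-06. Rnaseh2c was at 23.9, 34.5 and 43.2 CPM with DMSO and 15.1, 16.5 and 18.3 CPM with AU-15330, a difference of -0.996 (log2) at an adjusted p of 2.44e-08. Both were lower in all 6 AU-15330 libraries than in any DMSO library.

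Rnaseh2b went the other way. It was at 9.58, 12.1 and 20.04 CPM with DMSO, 17.3, 17.9 and 23.2 CPM with AU-15330, 14.2, 17.4 and 28.9 CPM with cisplatin, and 21.2, 24.04 and 30.1 CPM with the combination. Against DMSO it rose by 0.56 with AU-15330 (adjusted p = 0.00326), by 0.59 with cisplatin (adjusted p = 0.00329) and by 0.93 with the combination (adjusted p = 1.15e-05), although the DMSO range overlapped those of the single drugs through DMSO replicate 1 (20.04 CPM). For AU-15330 the call was lost in replicates 1 to 3 alone (0.43, adjusted p = 0.101), and replicates 4 to 6 gave 0.69 (adjusted p = 0.000121). The combination was above cisplatin by 0.34 (adjusted p = 0.0580) and above AU-15330 by 0.38 (adjusted p = 0.0579), both above the threshold, with 6 of 6 replicate numbers higher in each. Whether they passed depended on the libraries and the fit: without replicate 1 the first became 0.38 (adjusted p = 0.00253) and the second 0.34 (adjusted p = 0.0116), while neither passed without any other number (adjusted p of up to 0.195 and 0.148), and with a term for the 2 sets of replicates they were 0.35 (adjusted p = 0.0143) and 0.37 (adjusted p = 0.0177). In replicates 1 to 3 alone they were 0.19 (adjusted p = 0.464) and 0.40 (adjusted p = 0.207), and in replicates 4 to 6 alone 0.45 (adjusted p = 0.00267) and 0.28 (adjusted p = 0.0621).

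With cisplatin alone Rnaseh2a was at 65.5, 68.9 and 87.1 CPM (log2 fold change -0.17, adjusted p = 0.201) and Rnaseh2c at 29.2, 33.3 and 40.7 CPM (0.08, adjusted p = 0.598). The value of Rnaseh2a passed the threshold without replicate 2 (-0.30, adjusted p = 0.0356) and was -0.07 without replicate 1. In the combination Rnaseh2a was at 57.4, 63.9 and 79.0 CPM and Rnaseh2c at 24.4, 28.2 and 31.8 CPM, and both lay above AU-15330 alone, by 0.46 (adjusted p = 0.00186) and 0.77 (adjusted p = 7.89e-06). The effect of AU-15330 was thus smaller with cisplatin for both subunits, by 0.64 for Rnaseh2a (adjusted p = 0.00314) and 0.69 for Rnaseh2c (adjusted p = 0.00177). In replicates 1 to 3 alone, the calls of Rnaseh2a were lost both for the combination against AU-15330 (0.41, adjusted p = 0.141) and for this difference (0.60, adjusted p = 0.158). Against DMSO the combination gave -0.28 for Rnaseh2a (adjusted p = 0.0281), a call lost without replicate 3 or 5 (adjusted p = 0.0884 and 0.113) and in either set of 3 replicates (adjusted p = 0.0739 and 0.0924). For Rnaseh2c it gave -0.22 (adjusted p = 0.0785), with -0.49 (adjusted p = 0.00755) in replicates 1 to 3 and -0.01 (adjusted p = 0.933) in replicates 4 to 6. The Rnaseh2c value passed with a replicate block (-0.21, adjusted p = 0.0461), without the filter (-0.28, adjusted p = 0.0444) and without replicate 6 (-0.32, adjusted p = 0.0143). For Rnaseh2c, 24.8% of the exonic bases are shared with Kat5 on the opposite strand, and the use of strand in counting was not given in the sources used here. Kat5 had a log2 fold change of -0.03 (adjusted p = 0.766) with AU-15330, where Rnaseh2c was at -0.996, and of -0.25 (adjusted p = 0.00606) with the combination, where Rnaseh2c was at -0.22. Rnaseh2a shares 9.7% of its exonic bases with Gm49661 on the same strand, which was not analysed here, and 5.0% with Prdx2 on the opposite strand, which was at -0.29 (adjusted p = 0.0743) with AU-15330.

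**Figure D3:**
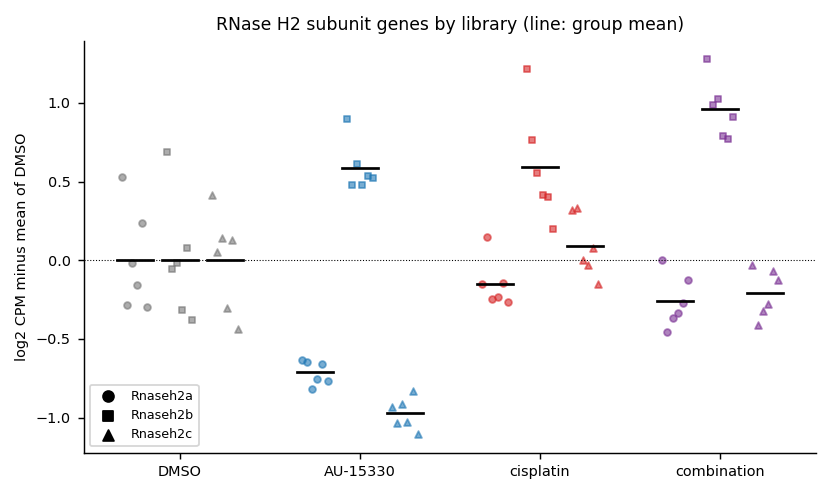
Log2 CPM of Rnaseh2a, Rnaseh2b and Rnaseh2c in each library minus the mean of the DMSO libraries for that gene, with 6 points and a group mean per treatment. With AU-15330 the squares of Rnaseh2b sit above 0 in all 6 libraries and the circles and triangles of Rnaseh2a and Rnaseh2c below it in all 6.

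Per 100 reads of Rnaseh2a in the same library there were 14.2 to 18.6 reads of Rnaseh2b with DMSO, 21.8 to 40.8 with cisplatin, 32.4 to 42.9 with the combination and 34.5 to 45.6 with AU-15330. The DMSO range lay below the other 3. For Rnaseh2c the same ratio was 37.3 to 52.1 with DMSO and 31.5 to 38.5 with AU-15330, which overlap. Across the 24 libraries the log CPM of Rnaseh2a and Rnaseh2c had a Pearson correlation of 0.901, while that of Rnaseh2a and Rnaseh2b was -0.046. With treatment means removed the 3 pairs of subunits were at 0.777, 0.661 and 0.763 (a with c, a with b, b with c). These values are descriptions over libraries that share treatments, and in replicate 1 of DMSO each of the 3 subunit genes had its highest DMSO level.

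Enpp1 (chromosome 10, 24637914 to 24712159, minus strand) encodes the ectoenzyme that hydrolyses extracellular cGAMP, and it was highest with DMSO. Its lowest, median and highest levels were 191.8, 246.6 and 306 CPM with DMSO, 96.1, 120.2 and 139.8 CPM with AU-15330, 101.8, 138.4 and 199 CPM with cisplatin, and 137.8, 159.6 and 177 CPM with the combination. The AU-15330 and combination libraries lay below all DMSO libraries, and 1 cisplatin library reached into the DMSO range. The log2 fold change against DMSO was -1.08 with AU-15330 (standard error 0.131, adjusted p = 4.67e-08), -0.79 with cisplatin (standard error 0.130, adjusted p = 1.49e-05) and -0.65 with the combination (standard error 0.130, adjusted p = 7.52e-05). The 2 single decreases did not add: the effect of AU-15330 with cisplatin was 0.14 (95% interval -0.13 to 0.41), and it differed from that without cisplatin by 1.22 (adjusted p = 1.49e-05), the largest such difference among the 9 genes in the fit of all 24 libraries. It was 1.53 in replicates 1 to 3 and 0.89 in replicates 4 to 6, where that of Sting1 (0.96) was larger. Within AU-15330, replicates 1 to 3 were at 96.1 to 104 CPM and replicates 4 to 6 at 136.4 to 139.8 CPM, and the log2 fold change against DMSO was -1.48 in the first set and -0.71 in the second. The combination was above AU-15330 by 0.43 (adjusted p = 0.0100), with 0.66 (adjusted p = 0.0228) in the first set and 0.17 (adjusted p = 0.0664) in the second. This call was also lost without replicate 2 (0.34, adjusted p = 0.0582).

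With cisplatin present, AU-15330 had a different effect from that in its absence on 5 of the 9 genes (4 positive differences, 1 negative), against 33.7% of all tested genes. The 5 were Sting1, Rnaseh2a, Rnaseh2c, Enpp1 and Samhd1, and the 4 others, Cgas, Tbk1, Ikbke and Rnaseh2b, had differences of -0.16, -0.16, -0.38 and -0.22 with adjusted p of 0.470, 0.121, 0.138 and 0.484. That of Ikbke passed with a term for the sets of replicates, as given above, with a replicate block (-0.37, adjusted p = 0.0191) and without replicate 1 (-0.50, adjusted p = 0.0348). It was -0.30 (adjusted p = 0.421) in replicates 1 to 3 and -0.48 (adjusted p = 0.00326) in replicates 4 to 6. That of Tbk1 passed with DESeq2 (-0.18, adjusted p = 0.0465), without replicate 2 (-0.23, adjusted p = 0.0473) and with total counts for scaling (-0.22, adjusted p = 0.0294). Between the combination and cisplatin, 5 of 9 passed the test (2 higher, 3 lower, against 68.1% of all tested genes), and between the combination and AU-15330 7 of 9 did (6 higher, 1 lower, against 41.7%), the gene that was lower being Ikbke. Of those not yet given, Rnaseh2c in the combination against cisplatin was at -0.30 (adjusted p = 0.0215), a call lost without replicate 2 (adjusted p = 0.148), with total counts (adjusted p = 0.0654) and in replicates 4 to 6 alone (adjusted p = 0.318), and Rnaseh2a was at -0.11 (adjusted p = 0.415). Against AU-15330, the combination gave 1.32 for Cgas, 0.47 for Samhd1 (adjusted p = 1.80e-09 and 2.49e-05) and -0.04 for Tbk1 (adjusted p = 0.624). Between AU-15330 and cisplatin alone 7 of 9 did (1 higher, which was Tbk1, and 6 lower, against 73.1%). The 6 were Sting1 (-3.07), Rnaseh2c (-1.07), Samhd1 (-0.86), Rnaseh2a (-0.57), Cgas (-0.52) and Enpp1 (-0.29), and Rnaseh2b was at -0.04 (adjusted p = 0.849). The call of Enpp1 (adjusted p = 0.0493) was lost without replicate 2, 3 or 6 (adjusted p = 0.172, 0.288 and 0.0501), with total counts (adjusted p = 0.0896), without the filter (adjusted p = 0.0549), with these groups fitted alone (adjusted p = 0.0646) and with a term for the sets of replicates (adjusted p = 0.0506), and its value was 0.011 in replicates 4 to 6 alone. These comparisons share libraries and are not independent of each other.

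**Figure D4:**
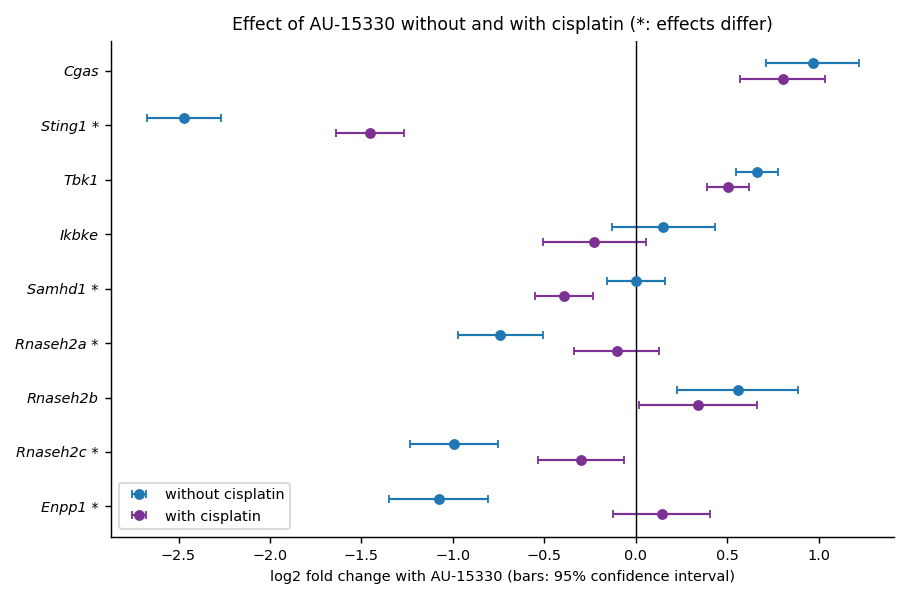
Log2 fold change with AU-15330 for 9 genes without cisplatin (AU-15330 against DMSO) and with cisplatin (combination against cisplatin), with 95% confidence intervals and an asterisk where the 2 effects differed at an adjusted p under 0.05. The 2 intervals of Sting1, Rnaseh2a, Rnaseh2c and Enpp1 are separate, with the effect nearer to 0 or past it when cisplatin was present, and those of Samhd1 are separate too, with the effect farther from 0 when cisplatin was present.

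The sensor was set against the clearance enzymes by reads within the same library. Cgas reads per 100 Samhd1 reads were 2.23 to 3.61 with DMSO (median 3.08), 3.65 to 7.21 with cisplatin (median 4.40), 4.34 to 7.50 with AU-15330 (median 5.65) and 9.62 to 11.7 with the combination (median 10.3). The combination lay above the other groups without overlap, DMSO lay below them, and the single drugs overlapped. Per 100 reads of the 3 RNase H2 genes together, Cgas had 2.06 to 4.76 reads with DMSO, 7.84 to 12.6 with cisplatin, 8.11 to 12.3 with AU-15330 and 17.6 to 21.2 with the combination. Per 100 Enpp1 reads it had 1.47 to 2.39, 6.04 to 17.4, 5.13 to 11.7 and 11.8 to 18.02 in the same order, where the cisplatin range reached the combination through replicate 1.

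The parts of these ratios differed between the single drugs. With cisplatin Samhd1 rose alongside Cgas (0.87 against 1.48 on the log2 scale), and with AU-15330 Samhd1 was at 0.00 while Cgas rose by 0.97. Of the RNase H2 transcripts, Rnaseh2b rose with each drug and the other two fell with AU-15330, and Enpp1 fell with each drug.

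The adaptor set against the same enzymes gave another order. Sting1 reads per 100 Samhd1 reads were 17.1 to 25.8 with DMSO and 15.8 to 20.7 with cisplatin, which overlap, and 7.48 to 10.8 with the combination and 3.50 to 4.54 with AU-15330, which lay below both and apart from each other. Per 100 reads of the 3 RNase H2 genes, Sting1 had medians of 39.8 with cisplatin, 26.1 with DMSO, 15.4 with the combination and 7.04 with AU-15330. Per 100 Enpp1 reads, Sting1 had 22.2 to 50.04 reads with cisplatin, above the other groups, 9.84 to 18.2 with DMSO and 9.21 to 16.6 with the combination, which overlap, and 4.12 to 7.68 with AU-15330. Tbk1 reads per 100 Sting1 reads had medians of 106.2 with cisplatin, 142.6 with DMSO, 433 with the combination and 1334 with AU-15330. In the combination, Cgas relative to the clearance genes was thus at its highest while Sting1 relative to them was under its DMSO range for Samhd1 and for RNase H2 but not for Enpp1.

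**Figure D5:**
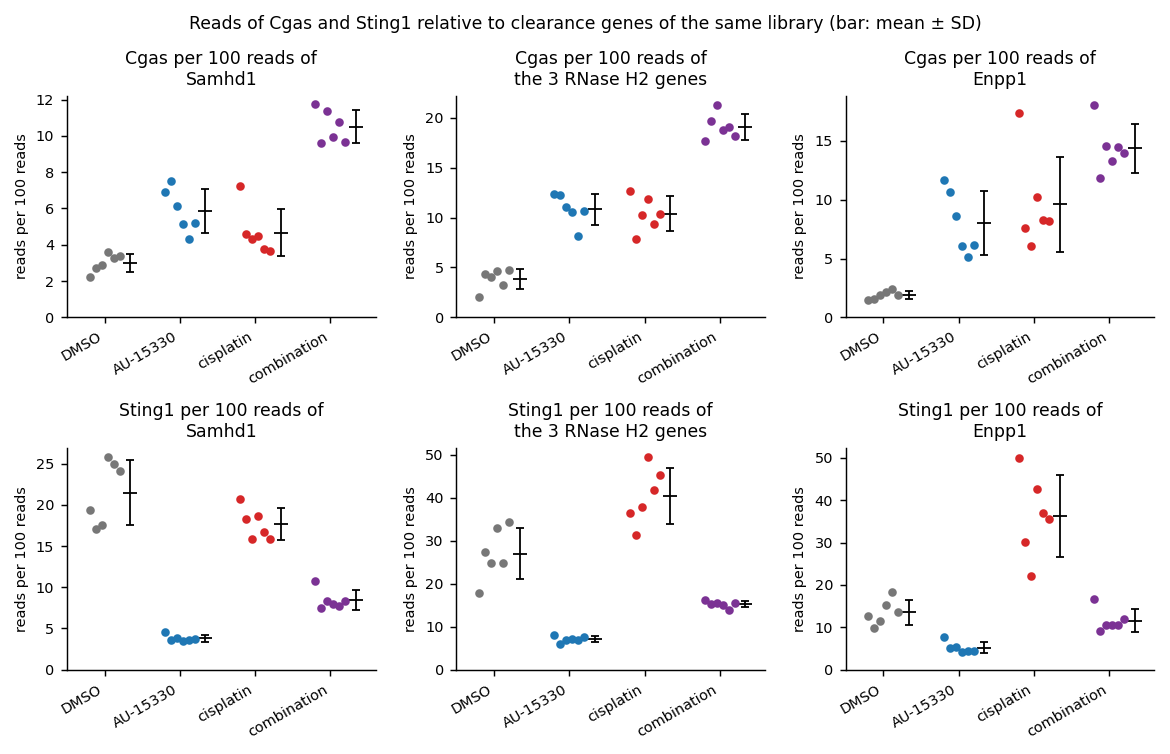
Reads of Cgas (upper row) and Sting1 (lower row) per 100 reads of Samhd1, of the 3 RNase H2 genes or of Enpp1 in the same library, with 6 libraries and the mean ± SD (n = 6) for each treatment, each axis starting at 0. The combination is highest for Cgas over Samhd1 (9.62 to 11.7) and over RNase H2 (17.6 to 21.2), and AU-15330 is lowest for Sting1 in the 3 lower panels.

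The genes whose log CPM was most like that of Cgas over the 24 libraries were Mcm2, a subunit of the replicative helicase (Pearson correlation 0.982), 4930558J18Rik (0.980) and Ercc6l (0.977). With treatment means removed these were 0.609, 0.714 and 0.683. Mcm2 had medians of 57.1 CPM with DMSO, 105 CPM with AU-15330, 170.9 CPM with cisplatin and 293 CPM with the combination, the same order as Cgas. The 12 proliferation genes (such as Mki67, Pcna and Cdk1) had correlations with Cgas from 0.880 to 0.982 (median 0.939), and the 11 tested interferon-response genes from -0.284 to 0.951 (median 0.750), where the median over all tested genes was 0.002. With DMSO as the reference, 12 of 12 proliferation genes were called higher with cisplatin (median log2 fold change 2.16), with AU-15330 (1.00) and with the combination (2.55). Over all 12941 tested genes, 3360, 4681 and 4757 were called higher in the same order. Their part in the Cgas levels was not tested. For Sting1 the closest genes were Cdv3 (0.985), Ccr7 (0.984) and Flt4 (0.983), at 0.673, 0.439 and 0.823 with treatment means removed. Its correlations with the proliferation genes ran from -0.295 to 0.281. The libraries fall into 4 treatment groups, so the correlations with treatment means kept mostly restate the order of 4 group means.

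Other genes of the pathway were taken from a list of 71, of which 62 passed the filter on low counts. Cisplatin against DMSO called 21 higher and 15 lower, AU-15330 against DMSO 24 higher and 22 lower, and the combination against DMSO 26 higher and 19 lower, with median log2 fold changes of 0, 0.02 and 0.03. The 36, 46 and 45 genes called of 62 stood against the 51.7%, 73.4% and 73.3% of all tested genes, so these counts too were near the background. Over all tested genes the calls were split about evenly, 3360 higher and 3329 lower with cisplatin, 4681 higher and 4816 lower with AU-15330, and 4757 higher and 4729 lower with the combination. The counts of the shorter lists below, of 5 to 15 genes, can be read against this split. Among 13 tested sensors other than cGAS, 8 rose and 1 fell with cisplatin and 7 rose and 4 fell with AU-15330. Ifi203, of the HIN-200 family of DNA-binding proteins, rose by 1.95 with cisplatin and by 3.00 with AU-15330. Its relative Ifi204 had a median of 34.7 CPM with DMSO and went in opposite directions, by 1.33 with cisplatin and -1.39 with AU-15330 (adjusted p = 3.85e-08 and 9.43e-09). Zbp1, a sensor of Z-form nucleic acids, had at most 2 counts in any DMSO library, 7.82 to 15.2 CPM with cisplatin, at most 7 counts with AU-15330 and at most 26 counts with the combination.

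Of 11 tested genes for STING transport and turnover, 6 fell and the others were not called with cisplatin, 2 rose and 4 fell with AU-15330, and 2 rose and 7 fell with the combination. Yif1a, which works in transport from the endoplasmic reticulum to the Golgi apparatus, fell by 0.70 with cisplatin (adjusted p = 1.17e-08), and Rnf26, a ubiquitin ligase of the endoplasmic reticulum that acts on STING, fell by 0.89 with AU-15330 (adjusted p = 8.78e-08). Of 5 tested genes of cGAMP transport and breakdown, 2 fell and 3 were not called with cisplatin, and 4 fell and 1 was not called with AU-15330. Slc19a1, the folate carrier that also imports cyclic dinucleotides, had medians of 16.4 CPM with DMSO, 7.53 CPM with cisplatin, 14.9 CPM with AU-15330 and 16.6 CPM with the combination. Lrrc8c, a subunit of volume-regulated anion channels that pass cGAMP, fell by 1.39 with AU-15330.

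Of 15 other nucleases and clearance enzymes tested, 7 rose and 1 fell with cisplatin, 8 rose and 4 fell with AU-15330, and 7 rose and 2 fell with the combination. Exo1, an exonuclease of DNA repair, had medians of 3.42 CPM with DMSO, 10.8 CPM with AU-15330, 25.9 CPM with cisplatin and 45.4 CPM with the combination. Fen1, the flap endonuclease of DNA replication, rose by 1.81 with cisplatin and 1.43 with AU-15330. Adar, which edits double-stranded RNA, rose by 1.78 and 1.91.

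Of 10 tested regulators of cGAS, 4 rose and 2 fell with cisplatin and 3 rose and 3 fell with AU-15330. The nuclear protein Hmgb2 rose by 1.60 with cisplatin, and Trim56, a ubiquitin ligase that acts on cGAS, rose by 1.25 with AU-15330. Of 8 kinase adaptors and transcription factors, 2 rose and 3 fell with cisplatin and 4 rose and 3 fell with AU-15330, where Tbkbp1, an adaptor of TBK1, rose by 1.48. Irf3, the main substrate of TBK1, fell by 0.43 with cisplatin (adjusted p = 6.16e-05) and by 0.25 with AU-15330 (adjusted p = 0.00630), with medians of 65.1, 48.1 and 55.2 CPM for DMSO, cisplatin and AU-15330. Irf7, which interferon itself induces, had medians of 8.01 CPM with DMSO, 228.8 CPM with cisplatin, 169 CPM with AU-15330 and 123.8 CPM with the combination. Ifnb1 had 0 counts in all DMSO libraries and at most 6 with cisplatin, 2 with AU-15330 and 3 with the combination, too few to test. Of 11 tested interferon-stimulated genes, 11 rose with cisplatin (median log2 fold change 6.24), 9 rose and 1 fell with AU-15330 (2.40), and 10 rose and 1 fell with the combination (4.56). Between the combination and cisplatin 3 were higher and 6 lower (median -0.84), where Cgas was higher by 0.80 and Sting1 lower by -1.45. The 11 genes did not share an order of group medians. That of Ifit1 (DMSO, AU-15330, combination, cisplatin, from lowest to highest) was found for 5 of the 11, with medians of 0.734, 25.7, 45.1 and 219.5 CPM for Ifit1 itself. The order of Cgas was found for 1, the chemokine gene Ccl5, with medians of 1.43 CPM with DMSO, 6.31 CPM with AU-15330, 30.2 CPM with cisplatin and 65.5 CPM with the combination. By medians alone the order of Sting1 was found for 1, Mx1. Its AU-15330 and combination medians, 0.150 and 0.152 CPM, lay within the 0.12 to 0.186 CPM that 3 counts correspond to. These 2 groups of Mx1 were thus tied at the floor, and their order cannot be read.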

How the data were processed

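RNA of 24 libraries of ID8 P53 KO cells, prepared with a directional poly(A) kit, had been sequenced on 2 lanes. The authors' processing notes name STAR 2.7.1a, DESeq2 1.36.0 and the build mm10. The counting tool, the annotation and the use of strand in counting are not given in the sources used here. The deposited values are raw counts per gene symbol. All 48 columns were matched to libraries by their names and the 2 lanes were summed. Lanes of a library differed by a chi-square per degree of freedom of 1.36 to 1.46.

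The test was the quasi-likelihood F test of edgeR 4.0.16 (R 4.3.3). Library sizes were scaled by TMM, filterByExpr left 12941 genes, and a model of 4 group means was fitted to all 24 libraries, which leaves 20 residual degrees of freedom. P-values were adjusted by the Benjamini-Hochberg method across all genes tested and called under 0.05. The test of the difference between 2 effects was the contrast of combination minus cisplatin with AU-15330 minus DMSO. Log CPM used a prior count of 2. Ratios of reads within a library were described without a test. Alternatives were DESeq2 1.42.0, other scalings, no filter, the groups compared alone, a replicate block, a minimum fold of 1.5 and each replicate number left out, and fits by sets of replicate numbers were added after the levels were seen. Counting floors of 3 counts cover counting error only.

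The members and the gene lists were chosen with earlier results of these data known. The 9 members that were tested are named in each comparison. From each other list at most the 2 called genes with the largest absolute log2 fold change were named in a comparison, with Ifnb1, Irf3, Irf7, Smarca4 and Smarca2 always allowed, and Ifi204, Ifit1, Ccl5, Mx1, Cd68, Pecam1 and the levels of named genes in further treatments were added after their values were seen. The values of 1 listed gene are not reported here, and counts over its list include it. Gene positions and overlaps came from GENCODE M21 (GRCm38), and promoter windows from RefSeq (GRCm38.p6).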

Additional observations from a re-analysis of the deposited data

Results flagged for a closer look

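Of 36 groups of 6 libraries (9 genes in 4 treatments), 7 held 1 library whose gap to its nearest neighbour, divided by the whole range of the 6 values, was above Dixon's limit of 0.625 for 6 values. Chance alone gives about 1 group in 20, or 1.8 of 36. The 36 groups are not independent, since the 9 genes were measured in the same libraries, so the 7 are not separate events. In 4 of the 7 that library was replicate 1. The quotient was 0.633 for Cgas with DMSO (replicate 1, lowest) and 0.629 for Cgas with cisplatin (replicate 1, highest). It was 0.659 for Rnaseh2b with DMSO and 0.719 for Rnaseh2b with AU-15330 (replicate 1, highest in both). The others were 0.709 for Ikbke with DMSO (replicate 2, lowest), 0.735 for Rnaseh2a with cisplatin (replicate 2, highest) and 0.647 for Samhd1 with the combination (replicate 6, highest). What set these libraries apart was not tested.

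The effect of AU-15330 with cisplatin differed from that without it for 5 genes by the test of the difference itself, by 1.02 for Sting1, -0.40 for Samhd1, 0.64 for Rnaseh2a, 0.69 for Rnaseh2c and 1.22 for Enpp1 on the log2 scale. The difference had the stated sign in 6 of 6 replicate numbers for Sting1, Rnaseh2c and Enpp1, and in 5 of 6 for Samhd1 and Rnaseh2a.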

How the results depend on the processing

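Of 111 alternative counts of members called, 103 were within 1.5 times the value reported and 8 were not. With a minimum fold of 1.5 the counts were 2 for cisplatin against DMSO, 4 for AU-15330 against DMSO, 3 for the combination against DMSO, 2 for the combination against cisplatin, 2 for the combination against AU-15330, 3 for AU-15330 against cisplatin and 2 for the difference between effects, and over all genes the counts in the same order were 1789, 4657, 4683, 3803, 842, 4723 and 926 instead of 6689, 9497, 9486, 8813, 5394, 9456 and 4361. In replicates 1 to 3 alone the difference between effects was called for 3 members, and over all genes for 1701, with 2817 called for the combination against AU-15330. With each replicate number left out in turn, the members called ranged from 5 to 7, 7 to 7, 6 to 9, 4 to 7, 6 to 8, 6 to 7 and 4 to 6 in that order of comparisons. Over all genes the ranges were 5824 to 6826, 8983 to 9685, 8945 to 9643, 8213 to 8958, 4501 to 5623, 8957 to 9665 and 3265 to 4627. Of 999 alternative log2 fold changes, 909 kept their side of the threshold (values not called could change sign), 54 lost a call, 35 gained one and 1 reversed: Enpp1 for AU-15330 against cisplatin was -0.29 (adjusted p = 0.0493) and 0.011 (adjusted p = 0.890) in replicates 4 to 6 alone. Total counts in place of TMM moved the median of all genes to 0.126 for AU-15330, 0.139 for the combination and 0.069 for cisplatin against DMSO, and made 3977 of 6506 called genes higher with cisplatin, against 3360 of 6689. With this scaling Ikbke and Rnaseh2a in the combination against DMSO lost their calls (-0.19 and -0.14). The cause was not tested.

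The main fit had no term for the replicate number, since the study's methods name no covariate and the labels do not call the replicates paired. Deviations of same-numbered libraries from their group means correlated at -0.133 to 0.483 (mean 0.145, 23 of 36 over 0.1). Those of other numbers correlated at -0.458 to 0.367 (mean -0.027, 35 of 180 over 0.1). Of 24 libraries, 10 were closest to their own number. This is a hint from the data of structure shared by number, which the main fit leaves in its spread. With a replicate block the members called were 5, 7, 9, 7, 8, 8 and 6 in the order of comparisons above. Over all genes the calls were 7354, 9966, 9889, 9286, 6185, 9895 and 5303, each above the count without the block. In that fit Rnaseh2b was called for the combination against cisplatin (0.36, adjusted p = 0.000884) and against AU-15330 (0.37, adjusted p = 0.00148), and Rnaseh2c for the combination against DMSO (-0.21, adjusted p = 0.0461). Ikbke was called for the combination against cisplatin (-0.23, adjusted p = 0.0220), AU-15330 against cisplatin (0.25, adjusted p = 0.0103) and the difference between effects (-0.37, adjusted p = 0.0191). Counts were sufficient for the 9 genes in each library (59 or more for Cgas, the lowest), and none of the values of these 9 depended on the floor of 3 counts.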
